A study of Mus musculus with 8 samples.

Results

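The genes described here are markers of B cells and of the antibody-secreting plasma cells that B cells become, measured in the colon of mdr1a-/- mice on a curcumin diet and on a control diet. A list of 35 names was matched to the symbols of the array annotation. Faim3 is an older name of Fcmr and Igj of Jchain, so the list holds 33 distinct genes. Probes were found for 31 of them, and all 31 had enough values to be tested, among 24030 measurements in all. Cd38 and Bach2 had no probe in the annotation used here. The 31 genes were read as 19 genes of naive and mature B cells, 8 of plasma cells and 4 shared by both stages. This division was made from textbook knowledge. The place of Ltb among the 4 is uncertain, since B and T cells use it to organise follicles.

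The curcumin group was 4 male mdr1a-/- mice fed the AIN-76A diet with 0.2% curcumin, and the control group was 4 male mdr1a-/- mice fed AIN-76A alone. Every mouse compared lacked mdr1a, the gene for a drug efflux pump of the gut lining, in all its cells. The design text assigns 12 mice to each of 3 diets, the other one holding 0.1% rutin (not analysed here), and follows them from 7 to 24 weeks of age, whereas the labels give an age of 7 weeks. It also says that the curcumin mice on the arrays had a low colonic HIS, a histological injury score, and the control mice a high one, so diet and injury score cannot be told apart. Each mouse was hybridised on its own 2-colour array.

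B cells carry a surface receptor whose signalling chains, co-receptors and kinases decide whether the cell is activated. An activated B cell that becomes a plasma cell turns off much of this surface programme, under the repressor Prdm1 (Blimp-1), and turns its secretory pathway to making antibody. In the colon, naive and mature B cells sit mainly in lymphoid follicles and patches, and plasma cells lie scattered in the lamina propria, where most secrete IgA that the epithelium carries into the lumen. A piece of colon can therefore hold many follicle B cells or few, depending on where it was cut. In whole tissue, fewer cells of a type and less RNA per cell cannot be told apart.

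The value of a gene on an array is a log2 ratio of the mouse's colon RNA to a reference RNA, averaged over the gene's probes. A ratio of 0 is equal signal in both, and a difference of 1 between diets is a 2-fold difference. The labels do not state which channel is on top. The ratio is read here as mouse over reference, which is likely because Apoa1, a liver gene, lay between -4.52 and -3.86 on all 8 arrays, and the medians of liver markers lay between -3.23 and -2.76. If the reference were on top, all differences given here would change sign. The design text names a single reference RNA, while the channel labels describe wild-type Swiss colon of the same diet. Liver and kidney markers this far below 0 are not what colon RNA in both channels would usually give. If the reference did differ by diet, curcumin minus control would be a difference of ratios with unlike denominators, and whether it did was not tested. Array medians lay between -0.02 and -0.01, and Pearson correlations across genes were 0.872 to 0.918 within curcumin, 0.798 to 0.923 within control and 0.745 to 0.834 between diets. The 10 markers of gut epithelium averaged 0.22 to 0.55 in curcumin and -0.11 to 0.10 in control, so a ratio to this reference does not by itself show the tissue, and 7 of the 10 hold on 1 or more arrays a log ratio that many features of the array share. A ratio near 0 does not say either that a gene was absent.

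No B cell or plasma cell gene passed the test between diets. Of all 24030 measurements, 4.73% passed an adjusted p of 0.05 in limma's moderated test with Benjamini-Hochberg adjustment over all of them, and the count among the 31 genes was 0 higher, against 2.1% of all measurements, and 0 lower, against 2.63%. An unadjusted p under 0.05 was reached by 5 of the 31, against 18.4% of all measurements. The curcumin and control arrays overlapped for each of the 31 genes, where 12.6% of all measurements did not overlap (7.21% with curcumin lower). The differences ran from -1.18 for Pou2af1 to 0.43 for Sdc1, with a median of -0.12 against -0.02 over all measurements. They were negative for 25 of the 31 genes, or 80.6%, against 56.2% of all measurements. Without control array 2 that count was 17 of 31 with a median of -0.04, without curcumin array 4 it was 20 of 31 with a median of -0.08, and after quantile normalization 19 of 31 with a median of -0.06. It was 22 of 31 with a median of -0.07 without curcumin array 1, and 28 of 31 with a median of -0.23 without control array 3.

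The median difference was -0.07 for the 19 naive and mature B cell genes, -0.32 for the 8 plasma cell genes and -0.57 for the 4 shared genes, with 14, 7 and all 4 of them negative. These medians depended on single arrays. With each array left out in turn, that of naive and mature B cell genes ran from -0.12 to 0.03 (0.03, with 8 of 19 negative, without control array 2). That of plasma cell genes ran from -0.54 without control array 3 to -0.20 without control array 1. That of the shared genes ran from -0.75 to -0.42, and was -0.29 after quantile normalization, where naive and mature B cell genes had -0.01 and plasma cell genes -0.24. The genes also varied more between mice than most: 15 of the 31 spanned 1 log2 unit or more over the 8 arrays, 48.4% against 13.6% of all measurements. Much of that span lay within a diet, and a single mouse, on control array 3, accounted for the overlap of many genes. With that array left out, a choice made after its values were seen, 11 genes were lower in every curcumin array than in every remaining control array, against 11.1% of all measurements. These 11 were 2 of the 19 naive and mature B cell genes (Cd79b and Btk), 5 of the 8 plasma cell genes (Derl3, Igha, Irf4, Mzb1 and Prdm1) and the 4 shared genes. Leaving out any other single array gave 0, 1 or 2 such genes. None of the genes was higher throughout under any of these choices.

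**Figure D1:**
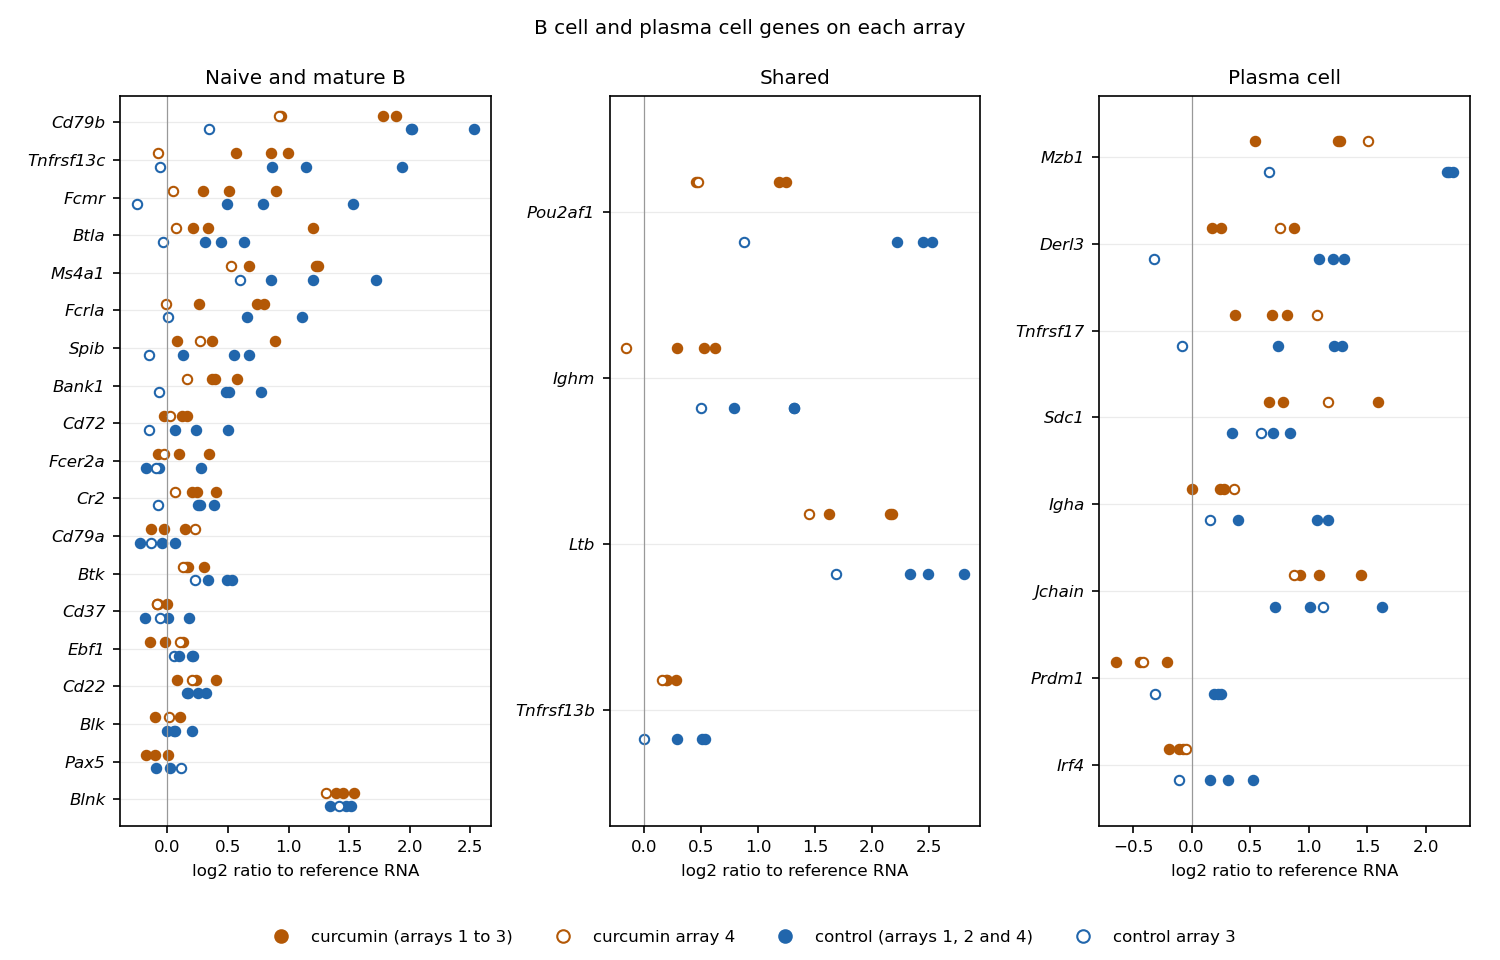
Log2 ratio to the reference RNA for each of the 31 genes, 1 point per array, in curcumin (upper points of each gene) and control (lower points); hollow points are curcumin array 4 and control array 3. Control array 3 lies at or near the low end of the control points for most genes with a wide span, while curcumin array 4 is low for naive B cell genes such as Tnfrsf13c and high for Mzb1 and Tnfrsf17.

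The receptor genes of naive and mature B cells had wide, overlapping values. Below, values within a diet are in the order of arrays 1 to 4. Cd79b, a signalling chain of the B cell receptor, stood at 0.94, 1.78, 1.89 and 0.92 in curcumin, against 2.01, 2.53, 0.34 and 2.02 in control. Control array 3 was the lowest of the 8, and the other control mice were above every curcumin mouse. The difference was -0.34 (SE 0.44, adjusted p = 0.756, limma), and 0.0095 after quantile normalization. Ms4a1, which encodes CD20, read 0.67, 1.24, 1.22 and 0.52 in curcumin, against 0.86, 1.72, 0.60 and 1.21 in control. Here the diets were interleaved, and the difference was -0.18 (SE 0.26, adjusted p = 0.776). Its 2 probes gave -0.33 and -0.04. Tnfrsf13c, the receptor for the survival factor BAFF, gave 0.56, 0.86, 0.99 and -0.08 in curcumin, against 0.87, 1.94, -0.06 and 1.14 in control. Curcumin array 4 and control array 3 were the low mice of their diets, and the difference was -0.39 (SE 0.39, adjusted p = 0.668). Fcmr, the receptor for the constant part of IgM, showed the same 2 low mice, with 0.29, 0.51, 0.90 and 0.05 in curcumin, against 0.50, 1.53, -0.25 and 0.79 in control (difference -0.20, SE 0.34, adjusted p = 0.813).

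The remaining receptors and adaptors of this group had smaller ratios but often the same low and high mice. Bank1, a scaffold of receptor signalling, measured 0.37, 0.39, 0.57 and 0.16 in curcumin, against 0.51, 0.78, -0.07 and 0.48 in control. Fcrla, an intracellular Fc receptor-like protein of B cells, measured 0.26, 0.79, 0.74 and -0.01 in curcumin, against 0.66, 1.12 and 0.00 in control arrays 1 to 3, with no value on control array 4. In both genes control array 3 was the lowest control mouse. Spib, a transcription factor of mature B cells that M cells and plasmacytoid dendritic cells also use, came to 0.08, 0.37, 0.89 and 0.27 in curcumin, against 0.13, 0.55, -0.15 and 0.68 in control. Btla, an inhibitory receptor shared with T cells, was set apart by a single high value, 1.20 on curcumin array 2, while its other curcumin values ran from 0.07 to 0.33 and its control values from -0.03 to 0.63. Cr2, the complement receptor of follicular B cells, ran from 0.06 to 0.40 in curcumin and from -0.08 to 0.39 in control. The 0.06, on curcumin array 4, rests on 1 of its 2 probes. The other probe had no value there and read 0.42, 0.55 and 0.76 on curcumin arrays 1 to 3. Taken alone, the 2 probes gave differences of 0.24 and -0.07. Cd72, an inhibitory co-receptor, ran from -0.03 to 0.16 in curcumin and from -0.15 to 0.50 in control. Averaged over probes, none of these 6 genes had a difference above 0.15 in size.

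Other defining genes of the lineage spanned 0.52 log2 units or less over the 8 arrays. The median span of all measurements was 0.49. Cd79a, the partner chain of Cd79b, lay between -0.13 and 0.23 in curcumin and between -0.23 and 0.06 in control (difference 0.14, SE 0.10, adjusted p = 0.541). The 2 chains act as a pair in the receptor, yet Cd79b spanned 2.19 log2 units over the 8 arrays and Cd79a 0.45. Cd79a is read by 1 probe, as is Cd79b. Pax5 and Ebf1, the factors that set up B cell identity, ran from -0.18 to 0.01 and from -0.14 to 0.13 in curcumin, and from -0.09 to 0.11 and from 0.05 to 0.21 in control. Pax5 had no value on array 4 of either diet, so its fit rests on 3 arrays per diet. Blk, a receptor kinase, and Cd37, a membrane tetraspanin, stayed within 0.30 and 0.36 log2 units over all arrays. Cd22, an inhibitory co-receptor, ran from 0.08 to 0.40 in curcumin and from 0.16 to 0.32 in control. Its 2 probes went opposite ways, with differences of -0.19 and 0.13. The 0.40, on curcumin array 2, rests on 1 of them. Blnk, the adaptor that links the receptor to its downstream enzymes, was high and flat at once, with 1.31 to 1.54 in curcumin and 1.34 to 1.51 in control. Fcer2a, the low-affinity IgE receptor, ran from -0.08 to 0.35 in curcumin and from -0.17 to 0.28 in control.

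Btk, the kinase downstream of the receptor that is also used by myeloid cells, was the naive and mature B cell gene with the smallest p. It measured 0.15, 0.30, 0.17 and 0.13 in curcumin, against 0.33, 0.50, 0.23 and 0.53 in control. Only control array 3 lay within the curcumin range, and the difference of -0.21 (SE 0.09) had an unadjusted limma p of 0.044 and an adjusted p of 0.254.

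Promoters of 27 of the genes were found in the RefSeq promoter table (GRCm38.p6), as 30 windows of 300 bases around the listed starts, and they were searched on both strands for letters known from B cell factors. The octamer ATTTGCAT, read by the factors that Pou2af1 assists, was in 1 of the 30 windows and in 1.74% of all 32851 windows of that length. The letters TCCC and GGGA with 2 bases between them, bound by Ebf1, were in 1 of 30 against 0.904%, and GAGGAAGT (ACTTCCTC on the other strand), bound by PU.1 and Spib, in 3 of 30 against 3.20%. The stretches below hold these matches, with the match in capitals, and the start of Pou2af1, the gene with the largest difference, in whose window none was found. All but Pou2af1 are promoters of genes whose differences between diets were 0.12 or less in size. Positions count back from the listed start.
Blnk, octamer, chr19:40994312-40994371, minus strand, -150 to -91: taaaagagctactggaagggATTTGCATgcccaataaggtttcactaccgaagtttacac
Cd22, Ebf1 letters, chr7:30879038-30879097, minus strand, -69 to -10: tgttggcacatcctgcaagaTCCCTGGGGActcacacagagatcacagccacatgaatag
Cd72, PU.1 letters, chr4:43454636-43454695, minus strand, -69 to -10: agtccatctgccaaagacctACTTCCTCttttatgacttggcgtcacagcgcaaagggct
Cd37, PU.1 letters, chr7:45238840-45238899, minus strand, -60 to -1: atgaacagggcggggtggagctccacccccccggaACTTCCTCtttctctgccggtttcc
Btla, PU.1 letters, chr16:45224277-45224336, plus strand, -60 to -1: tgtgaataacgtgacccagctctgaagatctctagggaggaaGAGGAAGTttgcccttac
Pou2af1, no match, chr9:51213630-51213689, plus strand, -60 to -1: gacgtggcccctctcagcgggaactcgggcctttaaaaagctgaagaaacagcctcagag
A match is a description of the letters and not a bound site.

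Plasma cell genes followed another order of mice. Mzb1, a chaperone of antibody assembly in the endoplasmic reticulum, measured 0.54, 1.25, 1.27 and 1.51 in curcumin, against 2.24, 2.20, 0.67 and 2.18 in control. Control arrays 1, 2 and 4 lay close together above all curcumin arrays, and control array 3 was second lowest of the 8. The difference was -0.68 (SE 0.36, adjusted p = 0.371, limma), and its 10 probes gave values between -0.79 and -0.62. Prdm1, the repressor that drives plasma cell formation, measured -0.44, -0.65, -0.21 and -0.41 in curcumin, against 0.23, 0.19, -0.32 and 0.25 in control. Again only control array 3 fell within the curcumin range, and the difference was -0.51 (SE 0.14, adjusted p = 0.083). Irf4, the factor that acts beside Prdm1, gave -0.11, -0.20, -0.07 and -0.04 in curcumin, against 0.53, 0.16, -0.11 and 0.31 in control. Its difference was -0.33 (SE 0.13, adjusted p = 0.195), with the same overlap.

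Igha, the constant region of the IgA heavy chain, measured 0.27, 0.25, 0.00 and 0.37 in curcumin, against 1.17, 0.40, 0.16 and 1.07 in control. The 2 highest mice were on the control diet, and the difference was -0.48 (SE 0.22, adjusted p = 0.293). Derl3, part of the machinery that clears misfolded proteins from the endoplasmic reticulum, measured 0.87, 0.17, 0.25 and 0.75 in curcumin, against 1.30, 1.21, -0.32 and 1.09 in control. The remaining control mice exceeded every curcumin mouse, but the lowest of all was control array 3 (difference -0.31, SE 0.35, adjusted p = 0.708). Tnfrsf17, the survival receptor BCMA of plasma cells, gave 0.37, 0.81, 0.68 and 1.08 in curcumin, against 1.22, 1.29, -0.08 and 0.74 in control. Its difference, -0.06 (SE 0.29), was small beside that spread.

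The remaining plasma cell genes went their own way. Jchain, the joining chain of secreted IgA and IgM, measured 0.93, 1.44, 1.09 and 0.87 in curcumin, against 0.72, 1.63, 1.13 and 1.01 in control, and here control array 3 was not low. Its difference was -0.04 (SE 0.20, adjusted p = 0.948), while that of Mzb1 was -0.68 on the same arrays. One of its 2 probes held, on control array 1, a log ratio that 310 features of that array share to the last digit. Sdc1 (CD138), a marker of plasma cells that gut epithelium also makes, measured 0.78, 0.66, 1.59 and 1.17 in curcumin, against 0.70, 0.34, 0.60 and 0.84 in control. It was the plasma cell gene with a positive difference (0.43, SE 0.20, adjusted p = 0.295). The 10 epithelial markers had a median difference of 0.38 with 0 passing. With the log ratios that many features of an array share set to missing, 5 of the 10 could be tested, with a median of 0.56 and 0 passing. Their part in the value of Sdc1 was not tested.

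**Figure D2:**
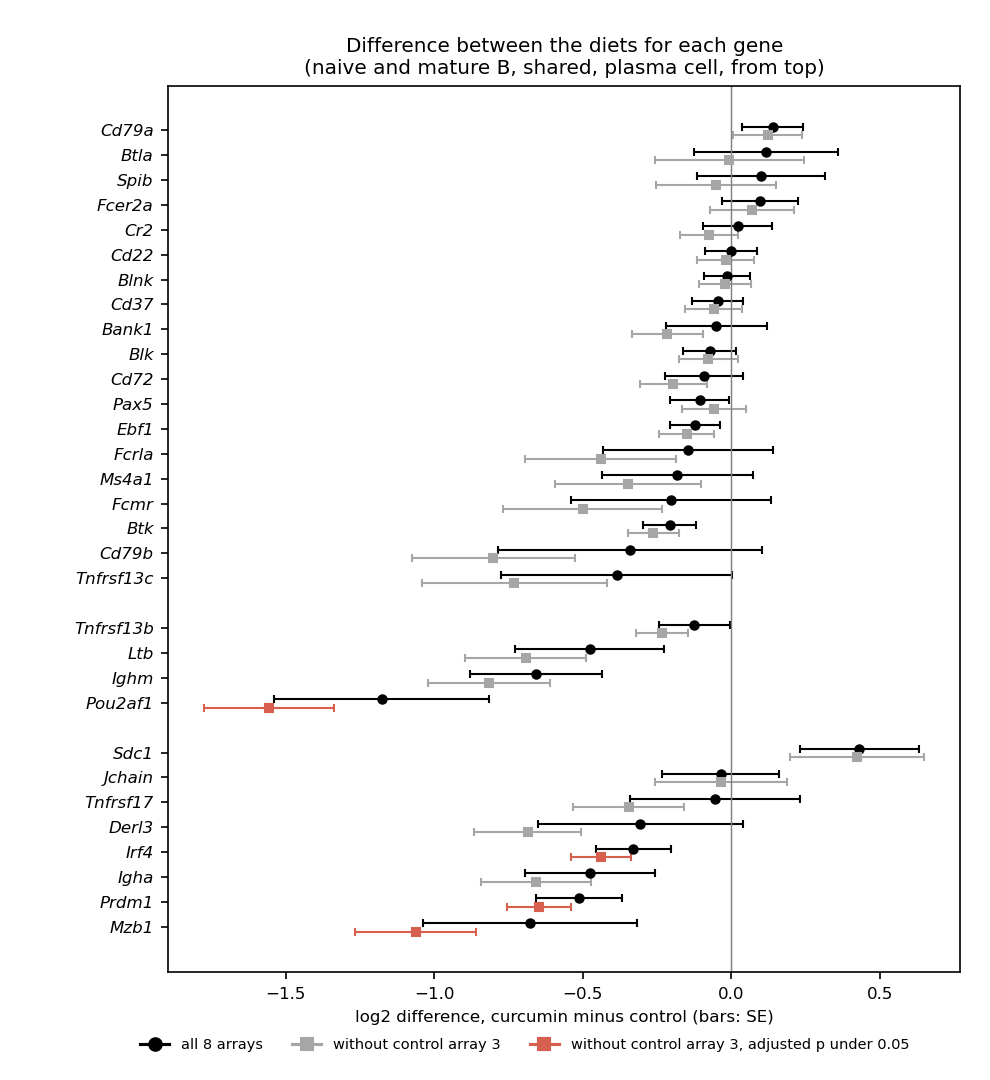
Log2 difference, curcumin minus control, with its SE, for each of the 31 genes over all 8 arrays (circles) and with control array 3 left out (squares); red squares have an adjusted p under 0.05. All 4 red squares, Pou2af1, Mzb1, Prdm1 and Irf4, lie in the middle and lower blocks, of shared and plasma cell genes, and no circle passed.

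Of the shared genes, Pou2af1 held the largest difference of all 31, and Ighm came next after Mzb1 in size of difference. Pou2af1, the B lineage coactivator (OCA-B) needed for germinal centres and antibody output, measured 0.46, 1.18, 1.24 and 0.47 in curcumin, against 2.22, 2.52, 0.88 and 2.44 in control. All control mice but the one on array 3 were above the highest curcumin mouse. Its mean was 0.84 ± 0.43 in curcumin and 2.02 ± 0.77 in control (SD, n = 4 each), a 2.26-fold lower ratio (difference -1.18, SE 0.36, adjusted p = 0.110, limma). Ltb, lymphotoxin beta, which B and T cells use to organise follicles, measured 1.62, 2.15, 2.17 and 1.45 in curcumin, against 2.33, 2.80, 1.68 and 2.49 in control (difference -0.48, SE 0.25, adjusted p = 0.362). After quantile normalization its difference was 0.0085. Tnfrsf13b (TACI), a receptor for BAFF and APRIL, was narrow in curcumin, 0.16 to 0.28, and wide in control, 0.00 to 0.53 (difference -0.12, SE 0.12, adjusted p = 0.65).

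Ighm, the IgM heavy chain, depended on the probe. Averaged over 4 probes it measured 0.29, 0.62, 0.53 and -0.15 in curcumin, against 0.79, 1.31, 0.50 and 1.31 in control (difference -0.66, SE 0.22, adjusted p = 0.144). The probe with the strongest ratios read 1.54, 1.86, 1.68 and 0.57 in curcumin, against 2.46, 2.96, 2.30 and 3.28 in control, with no overlap. Tested on its own beside all other probes it passed (-1.34, SE 0.30, adjusted p = 0.040). The other 3 probes gave -0.65, -0.56 and -0.07 and did not pass. The probe at -0.65 also had no overlap, with -0.08 to 0.34 in curcumin and 0.59 to 1.28 in control (adjusted p = 0.051, limma). What transcript each probe reads is not stated in the sources used here, and RNA of related immunoglobulin genes could bind the same probe, so these values are uncertain.

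Immunoglobulin genes outside the list were looked at beside Igha and Ighm. Ighg3, an IgG heavy chain, measured 0.18, 0.27, 0.63 and 0.11 in curcumin, against 1.13, 0.97, 1.02 and 2.22 in control. The diets did not overlap, control array 3 included, and the difference was -1.04 (SE 0.27, adjusted p = 0.062, limma). The annotation also names 18 variable segments of the heavy and light chains, a group taken by symbol after values were seen. All 18 differences were negative, from -1.03 to -0.01 with a median of -0.72. Of the 18, 0 passed, against 4.73% of all measurements, and 10 had an unadjusted limma p under 0.05, against 18.4%. Control array 3 was the lowest control array for all 18 segments. On the curcumin side array 1 was lowest for 16 of 18 and array 4 highest for 14 of 18. Only Ighv4-2 did not overlap between diets with all arrays in, where 7.21% of all measurements lay lower without overlap. Each of its 2 probes did overlap when taken alone, and 1 of them had no value on curcumin array 2. With control array 3 left out, 13 of 18 segments did not overlap, all lower in curcumin, against 11.1% of all measurements. Iglv1, a lambda light chain segment, has 9 probes. Of these, 6 gave differences of -1.39 to -1.07, and 3 gave -0.09 to -0.04. One probe passed on its own (-1.37, adjusted p = 0.042), and the gene as a whole did not (-0.86, SE 0.28, adjusted p = 0.130). Segments are near copies of each other, so neighbouring probes may read the same RNA and these are not independent counts.

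**Figure D3:**
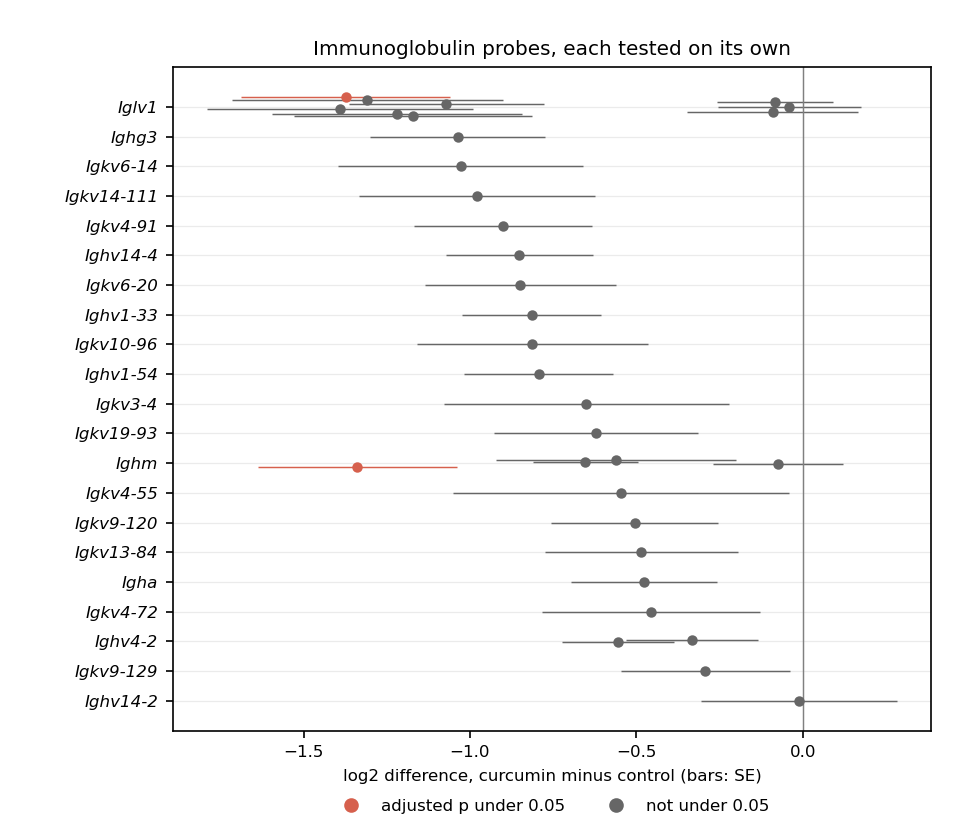
Log2 difference, curcumin minus control, with its SE, for each probe of Ighm, Igha, Ighg3 and the 18 variable segments, tested one probe at a time; red points have an adjusted p under 0.05. Every probe lies below 0, and the probes of Iglv1 fall into values near 0 and values beyond -1, with those of Ighm spread between.

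The mice can be compared through the median of each group of genes, with every gene centred on its own mean over the 8 arrays. For naive and mature B cell genes the medians were -0.15, 0.02, 0.16 and -0.14 in curcumin, against 0.03, 0.20, -0.27 and 0.08 in control. The diets were interleaved, and the lowest and highest mice were both on the control diet. For plasma cell genes the medians were -0.18, -0.22, -0.11 and -0.03 in curcumin, against 0.46, 0.44, -0.27 and 0.34 in control. Here 3 control mice lay apart from all curcumin mice, and control array 3 lay below them. For the shared genes the medians were -0.41, -0.05, -0.06 and -0.72 in curcumin, against 0.25, 0.69, -0.34 and 0.53 in control. The variable segments gave -0.75, -0.29, -0.48 and 0.07 in curcumin, against 0.87, 0.51, -0.38 and 0.35 in control.

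Curcumin array 4 ranked differently in genes of the 2 stages. Genes with a value in all 4 curcumin mice were counted. Array 4 was the lowest for 10 of 17 naive and mature B cell genes and 3 of 4 shared genes. It was the lowest for 1 of 8 plasma cell genes, and for 24.6% of all measurements. Cr2 is among these 10, but 1 of its 2 probes had no value on array 4. On the other probe array 4 was the highest curcumin array. By gene, curcumin array 4 was the highest for 4 of 8 plasma cell genes and 1 of 17 naive and mature B cell genes, against 24.3% of all measurements. Curcumin array 3 was the highest for 9 of those 17 naive and mature B cell genes, against 23.9%. Control array 3, in contrast, was low for both stages: it was the lowest control array for 11 of 17 naive and mature B cell genes, 6 of 8 plasma cell genes and 4 of 4 shared genes, against 25.9% of all measurements. Control array 2 was the highest control array for 11 of 17 naive and mature B cell genes, against 32.4% of all measurements, and for 2 of 8 plasma cell genes.

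**Figure D4:**
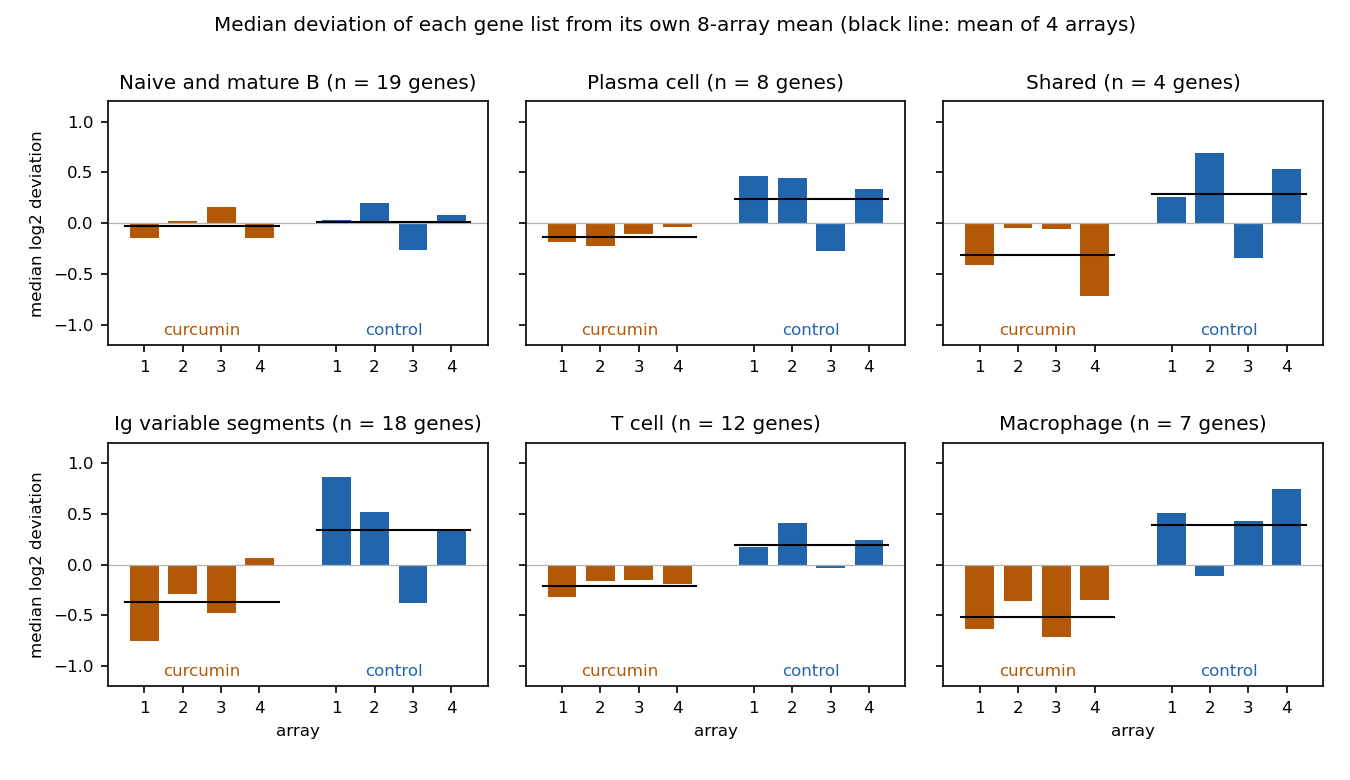
Median log2 deviation of each group of genes from its own mean over the 8 arrays, by array, in curcumin (left bars) and control (right bars); black lines are the mean of the 4 arrays. The black lines of naive and mature B cell genes lie near 0 in both diets. In these genes, plasma cell genes, shared genes, variable segments and T cell markers the control bars are positive except on array 3. In macrophage markers they are positive except on array 2.

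Leaving out control array 3 changed the calls. Without it 4 of the 31 genes passed, all lower in curcumin, against 3.46% of all measurements lower, and 5.68% in either direction, in that fit. They were Pou2af1 (-1.56, adjusted p = 0.007), Prdm1 (-0.65, adjusted p = 0.014), Mzb1 (-1.06, adjusted p = 0.023) and Irf4 (-0.44, adjusted p = 0.043), all by limma. No naive and mature B cell gene was among them. None of the 31 passed when any other single array was left out. With control array 3 and curcumin array 4 both left out, 3 passed, against 3.07% of all measurements: Pou2af1, Mzb1 and Prdm1. With array weights 2 of the 31 passed, Pou2af1 and Prdm1, against 8.05% of all measurements, and with 1 probe per gene 1 passed, Ighm, against 5.11%. The pair of arrays was chosen after the data were seen, and control array 3 carries nothing in its labels that sets it apart. Over all the alternatives tried, adjusted p ranged from 0.007 to 0.356 for Pou2af1, from 0.014 to 0.199 for Prdm1, from 0.023 to 0.609 for Mzb1 and from 0.043 to 0.434 for Irf4.

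The labels place curcumin arrays 3 and 4 on another range of slide numbers than the other 6 arrays. Within the shared range, 2 curcumin mice against 4 control mice, the differences were -1.19 for Pou2af1, -0.92 for Mzb1, -0.63 for Prdm1, -0.52 for Ighm and -0.38 for Irf4, and 0 of the 31 genes passed. The other range holds curcumin arrays alone.

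Genes outside the list were read from the same fits, in which 2.63% of all measurements were called lower in curcumin. That share was 1.1%, 1.97%, 1.53% and 1.01% with curcumin array 1, 2, 3 or 4 left out, against 1.56%, 2.61%, 3.46% and 1.22% with control array 1, 2, 3 or 4 left out. Within the shared slide number range it was 0.288%. The counts of each group below can be read against these shares. Other B cell surface and signalling genes were listed, and 22 of 25 were tested. Of these 3 fell (against 2.63% of all measurements) and 0 rose, and the median difference was -0.23. The count was 1 or 2 with any single array left out other than control array 3, 5 without that one, and 0 within the shared slide number range. Fcgr2b, the inhibitory Fc receptor that B cells share with myeloid cells, measured -0.10, 0.27, -0.20 and -0.08 in curcumin, against 1.52, 0.65, 1.64 and 1.93 in control. The diets did not overlap, and control array 3 was the second highest of all (difference -1.46, SE 0.25, adjusted p = 0.013, limma). Vav1, a signalling adaptor of all blood cells (-0.51, adjusted p = 0.032), and Ly86, a partner of the receptor CD180 on B cells and myeloid cells (-0.95, adjusted p = 0.042), also fell. Fcgr2b passed whichever array was left out, though not within the shared slide number range (-1.35, adjusted p = 0.144). Vav1 lost its call without control array 1 or 4 or any 1 curcumin array, and Ly86 without control array 1, 2 or 4 or curcumin array 1, 3 or 4. Over all 8 fits that left out an array, whether or not the call was lost, the differences ran from -0.60 to -0.43 for Vav1 and from -1.13 to -0.83 for Ly86. None of these 3 is made by B cells alone.

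Genes for B cell survival, homing and IgA transport included 20 of 23 tested, of which 4 fell (against 2.63% of all measurements) and 0 rose, with a median difference of -0.18. The count was 1 without control array 4 or curcumin array 1 or 4, and 2 without control array 1 or 2 or curcumin array 2. Cxcl12, a stromal chemokine that holds plasma cells, measured -1.005, -1.04, -1.35 and -1.12 in curcumin, against 0.02, -0.53, 0.39 and 0.02 in control. It fell by 1.10 (SE 0.18, adjusted p = 0.010, limma) with no overlap, and passed whichever array was left out, though not within the shared slide number range (-0.999, adjusted p = 0.124). Cxcl13, the chemokine that draws B cells into follicles, measured 2.11, 2.74, 1.76 and 1.82 in curcumin, against 3.33, 3.13, 3.06 and 3.43 in control. It fell by 1.13 (SE 0.20, adjusted p = 0.017), again with no overlap, although control array 3 held low ratios for the genes of follicle B cells. Its call was lost with a trended variance (adjusted p = 0.892) and after quantile normalization (-0.59, adjusted p = 0.179), and also without control array 4 or curcumin array 1 or 4, with differences of -1.34 to -1.01 over the 8 fits that left out an array.

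Tnfsf13b, the survival factor BAFF, fell by 0.55 (SE 0.12, adjusted p = 0.031), with 0.19 to 0.60 in curcumin and 0.83 to 1.18 in control. Itgb7, a gut homing integrin chain of lymphocytes, fell by 1.09 (SE 0.24, adjusted p = 0.034), with 0.34 to 0.73 in curcumin and 0.88 to 2.07 in control. The call of Tnfsf13b was lost without control array 1, 2 or 4 or curcumin array 1, 2 or 4, and that of Itgb7 without any array other than control array 3. Over all 8 such fits the differences ran from -0.61 to -0.45 for Tnfsf13b and from -1.35 to -0.96 for Itgb7, with the largest of both in the fit without control array 3. Pigr, the epithelial carrier of IgA into the lumen, was chosen for mention after its values were seen. It measured 0.92, 1.01, 0.95 and 0.76 in curcumin, against -0.55, 0.43, 0.65 and -0.19 in control. The diets did not overlap, but Pigr did not pass with all arrays (0.83, SE 0.24, adjusted p = 0.087). In 2 alternatives it was called higher. Leaving out control array 3 gave 1.02 (adjusted p = 0.027), and weighting the arrays gave 0.99 (adjusted p = 0.016).

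Markers of other immune cells moved beside these genes. Against 2.63% of all measurements, 4 of 12 T cell markers fell (Cd3d, Thy1, Cd6 and Lat), all 12 differences were negative, and the median was -0.34. The mean ratio of the T cell list was -0.11 to 0.11 in curcumin and 0.18 to 0.66 in control, and control array 3 was the lowest control array for 10 of the 12. The count was 0 without control array 4 or curcumin array 1, 3 or 4, was 1 without control array 1, and was 6 without control array 3. Of 7 macrophage markers 4 fell (C1qc, Lyz2, C1qa and Fcgr1), with a median of -0.96 and mean ratios of 0.05 to 0.40 in curcumin and 0.82 to 1.50 in control. Control array 3 was the lowest control array for 1 of those 7, and all 7 passed without control array 2, against 2.61% of all measurements. The macrophage count was 3 without control array 1 or 4 or curcumin array 1, 3 or 4, where Fcgr1 lost its call. Within the shared slide number range 1 macrophage marker passed, and 0 of the T cell and of the survival, homing and IgA transport genes. Of 5 plasmacytoid dendritic cell markers 1 fell (Bst2), with mean ratios of -0.14 to 0.30 in curcumin and 0.11 to 0.93 in control. The count was 0 without curcumin array 4, where Bst2 had an adjusted p of 0.053, 3 without control array 3 and 0 within the shared slide number range. Of 6 M cell markers 2 fell (Ccl9 and Tnfaip2), with mean ratios of -0.19 to 0.19 in curcumin and 0.10 to 0.44 in control, and 1 fell without curcumin array 1 or 4 and within the shared slide number range. The 31 B cell and plasma cell genes averaged 0.34 to 0.62 in curcumin and 0.22 to 0.93 in control. The part of these other cells in the values of genes they share with B cells, such as Btk, Ltb, Spib, Irf4 and Prdm1, was not tested.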

How the data were processed

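Colon RNA of 4 curcumin and 4 control mdr1a-/- mice was measured against reference RNA on 8 Agilent 2-colour arrays. Per the labels, Trizol and RNeasy columns were used for extraction, and 500 ng of RNA was amplified from an oligo-dT primer. Mouse samples carried Cy3 and the reference Cy5. A single reference RNA is named in the design text, and wild-type Swiss colon of the same diet in the channel labels. The authors deposited log2 ratios made with limma, per the submitters' processing notes. The log base was taken from limma's use, and background correction and normalization are not given in the sources used here. Where related transcripts bind 1 probe, a ratio mixes them, and a dye bias of a probe stays in its ratio but cancels between diets, since the dyes were not swapped.

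The table held 44290 features, of which 5033 to 10529 had no value on an array. Features were named from the platform annotation, with 31906 probes matched to GRCm38.p6 by gene ID and 0 symbols changed. Of all features, 32042 had 1 symbol, 47 several and 12201 none. Probes with values on at least 3 arrays per diet were kept and averaged per gene, and measurements with 3 or more values per diet were tested, which left 24030 (17220 named genes). The listed genes had 54 probes, of which 51 were tested. limma 3.58.1 (R 4.3.3) was fitted with lmFit and eBayes, curcumin minus control, two-sided, with Benjamini-Hochberg adjustment over all measurements and a threshold of 0.05. The fit was tested on simulated data. On the deposited values, not the simulated ones, the fit passed 504 measurements higher and 633 lower, and after quantile normalization 619 higher and 489 lower. The median SE was 0.11. Precision is limited by having 4 arrays per diet, which the design text calls biological replicates. Tables used Python 3.11.15, pandas 2.3.3, numpy 2.4.6 and matplotlib 3.10.9.

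The genes and all lists were chosen with earlier results of these data known, so no p was adjusted over a list and no list was tested. All listed genes are named, with every gene past the threshold from the other B lineage lists (or the 3 with the smallest p where none passed) and at most 4 from each other list. Alternatives were quantile normalization, other filters on missing values, 1 probe per gene, single probes, array weights, the slide number range as a block or shared range alone, a replicate block, a shared log ratio set to missing, a trended variance and leaving out each array.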

Additional observations from a re-analysis of the deposited data

Results flagged for a closer look

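Among groups of 4 mice, a mouse stood apart from the other 3 by Dixon's 95% critical value for 4 values of the 31 genes. Mzb1 measured 0.666 on control array 3, against 2.18 to 2.24 on the other control arrays. Derl3 measured -0.317 on control array 3, against 1.09 to 1.30 on the others. Prdm1 measured -0.315 on control array 3, against 0.192 to 0.249. Cd37 measured -0.00136 on curcumin array 3, against -0.0874 to -0.0750 on the other curcumin arrays, a gap smaller than the median SE of the fit. Chance gives about 1 such group in 20, and these 4 were 6.90% of the 58 groups of listed genes, against 6.03% of 45479 groups over all measurements. The 3 values of control array 3 all belong to plasma cell genes.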

How the results depend on the processing

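All values are log2 differences, curcumin minus control. The count over all measurements, 1137, was 487 to 1364 with each array left out, 1935 with array weights, 330 with the slide range as a block, 168 in the shared slide range, 743 with a replicate block and 737 without control array 3 and curcumin array 4. Replicate numbers did not pair the mice: correlations of same-numbered deviations were 0.167, 0.198, -0.00963 and -0.0213, 2 of 4 numbers matched best with their own, and with the block 0 of the 31 genes passed. The count of listed genes was 0 to 4 with each array left out, 1 with 1 probe per gene (Ighm), 1 with single probes, 2 with array weights (Pou2af1 and Prdm1) and 3 without control array 3 and curcumin array 4. The plasma cell median was -0.62 over single probes, where Mzb1 counts 10 times. Some differences changed sign, none of them passing. After quantile normalization those of Ltb (-0.48 as deposited) and Cd79b (-0.34) came to 0.0085 and 0.0095, and differences that were smaller to begin with came to 0.29 for Blnk, 0.0017 for Bank1, 0.16 for Jchain, 0.038 for Tnfrsf17 and 0.083 for Apoa1. In the shared slide range and with it as a block they were 0.0096 for Cd22, 0.057 for Blnk, -0.076 for Spib and 0.064 for Jchain. Array weights gave 0.0087 for Cd22, -0.0038 for Cr2, -0.032 for Spib and 0.038 for Jchain. Without control array 3 and curcumin array 4 they were 0.016 for Blnk, -0.018 for Cr2, -0.0067 for Spib and 0.036 for Jchain. Cr2 was -0.072 with 1 probe, and Fcrla 0.0081 with the replicate block. With each array left out in turn, sign changes fell within -0.22 to 0.066 for Bank1, -0.054 to 0.022 for Blnk, -0.13 to 0.24 for Btla, -0.058 to 0.049 for Cd22, -0.10 to 0.018 for Cd37, -0.20 to 0.020 for Cd72, -0.074 to 0.081 for Cr2, -0.50 to 0.093 for Fcmr, -0.44 to 0.12 for Fcrla, -0.17 to 0.13 for Jchain, -0.35 to 0.028 for Ms4a1, -0.061 to 0.22 for Spib and -0.35 to 0.11 for Tnfrsf17. The cause of these changes was not tested. Differences of the order of the median SE, 0.11, cannot be resolved with 4 arrays per diet.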

Other observations

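Germinal centre genes, which activated follicle B cells use, had a median difference of -0.09. Of these 8, 0 passed limma's test, against 4.73% of all measurements, and 2 had an unadjusted p under 0.05, against 18.4%. The diets did not overlap for 2 of the 8, both lower in curcumin, against 7.21%. Fas, a death receptor, had a difference of -0.42 (adjusted p = 0.077), with -0.29 to -0.01 in curcumin and 0.06 to 0.48 in control. It passed in 3 of 20 alternatives, with a lowest adjusted p of 0.018 by limma with 1 probe per gene. Bcl6, the repressor of the germinal centre programme, had -0.42 (adjusted p = 0.162) and Rgs13, a signalling regulator of germinal centre B cells, 0.31 (adjusted p = 0.300). Genes of the plasma cell's secretory pathway had a median of -0.07. Of these 16, 0 passed, against 4.73% of all measurements, and 1 had an unadjusted limma p under 0.05, against 18.4%. Sec11c, a subunit of the signal peptidase, had -0.48 (adjusted p = 0.114), Cd27, a receptor of memory B and T cells, 0.15 (adjusted p = 0.406) and Hspa5, the chaperone BiP, 0.30 (adjusted p = 0.418). On 3 arrays (2 curcumin and 1 control) Hspa5 holds a log ratio that many features of the array share, and without these values it could not be tested. The median of the secretory genes ran from -0.12 without control array 3, where 2 passed against 3.46% of all measurements lower, to 0.03 without control array 1. In this list control array 3 was the lowest control array for 10 of 15 genes with 4 control values, and curcumin array 2 the lowest curcumin array for 10 of 16.

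A few genes outside the list shared the low value of control array 3, and are named after their values were seen. Cxcr5, the receptor for Cxcl13 on follicle B cells, measured 0.19, 0.58, 0.81 and -0.21 in curcumin, against 0.63, 1.20, -0.27 and 0.78 in control. Ciita, the regulator of antigen presentation genes, measured 0.44, 0.91, 1.31 and 0.78 in curcumin, against 1.20, 1.63, 0.29 and 1.81 in control. Ly6d, a surface protein of early B lineage cells that keratinised epithelium also makes, is also among the plasmacytoid dendritic cell markers above. It measured 1.22, 2.41, 2.30 and 1.78 in curcumin, against 2.92, 3.66, 0.999 and 3.40 in control. None of the 3 passed the limma test. Cxcl13 itself, the ligand of Cxcr5, was 3.06 on that array, close to the 3.13 to 3.43 of the other control mice.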
